A study of Mus musculus with 12 samples.

Results

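DNA replication and mitosis genes were compared between undifferentiated spermatogonia of control and surgically cryptorchid mouse testes. The set holds 50 genes, 32 for replication and 18 for mitosis, found by symbol among the 21859 genes of the expression table. All 50 were in the table and all 50 passed the limit on low values, log2 of the mean RPM above -1 (RPM are reads scaled to the total of the library), which 16932 genes passed. RNA was sequenced from 12 Smart-seq2 libraries of GFRa1+/Kit- cells, 5 control and 7 cryptorchid, and each library stood for about 200 sorted cells. The mice are given as WT in the sample descriptions and carried the GFRa1-EGFP reporter in both groups. They were 8 to 10 weeks old males at surgery, and testes were taken 10 days later. The left testis was fixed to the abdominal wall, and the right testis, left in the scrotum, was the control, so a control testis came from an animal that had also been operated on. The mouse behind each library is not given, and *P*-values set the difference between the groups against the spread between these libraries. Surgery in adult animals is a model of a testis that first descended and was then moved. Control tissue was digested at 32°C and cryptorchid tissue at 37°C, so digestion temperature and surgery cannot be told apart.

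Before S phase, the origin recognition complex, CDC6 and CDT1 load the MCM ring onto origins, and geminin blocks a second loading. CDC45 and the GINS complex then turn the ring into the active CMG helicase, primase and the polymerases copy the strands, and PCNA, loaded by replication factor C, holds the polymerases on DNA. In mitosis, CDK1 with cyclin B drives entry, Aurora and Polo-like kinases build the spindle and correct its attachments, and the spindle checkpoint holds back CDC20 until chromosomes are attached. Replication genes are typically driven by E2F factors near the G1/S boundary. Many mitosis genes peak later, through CHR elements and CCAAT boxes bound by the MuvB complexes and NF-Y. In the testis, undifferentiated spermatogonia divide more slowly than the differentiating spermatogonia that follow them.

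The promoter windows are shown because the 2 lists hold these sequence words in different shares. RefSeq windows on GRCm38.p6, from 250 bases before to 50 after the start, were found for 40 of the 50 members. *Aurkb* is among the 10 members without one. An E2F word (TTTCCCGC, TTTCGCGC, TTTGCCGC or TTTGGCGC on either strand) was in the windows of 12 of 25 replication genes (48%) and 1 of 15 mitosis genes (6.67%), against 2.61% of all 27025 genes with a window. The CHR word TTTGAA, on either strand, was in 3 replication genes (12%) and 11 mitosis genes (73.3%), against 20.2% of all windows. CCAAT, on either strand, was in 18 (72%) and 14 (93.3%), against 41.1%. No word contains another, but E2F words on opposite strands can overlap, as they do in *Mcm6*. A match describes the letters of a window only. Capitals below mark these words, but in the short stretches only the word that the stretch is shown for. The *Gins3* stretch also begins with a CHR word of the other strand, left in lower case. The *Mcm6* stretch holds another E2F word, on the other strand, that overlaps the marked one. The E2F stretches lie at chr8:95633507-95633536 for *Gins3*, chr11:98908002-98908031 for *Cdc6* and chr1:128359797-128359826 for *Mcm6*, each printed from the minus strand. All lie before the RefSeq start, but those of *Gins3* and *Cdc6* lie after the start of the gene in GENCODE. The CHR stretches lie at chr7:122159453-122159482 for *Plk1* (plus strand) and chr2:172370521-172370550 for *Aurka* (minus strand), both after the RefSeq start.
Gins3: ttcaaactcgcTTTCCCGCgccgcactcgc
Cdc6: accccaggcgaTTTCCCGCtctccaccggc
Mcm6: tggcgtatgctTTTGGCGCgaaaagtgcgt
Plk1: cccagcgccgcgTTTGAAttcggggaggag
Aurka: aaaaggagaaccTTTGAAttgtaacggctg
The last stretches end before the GENCODE start, which in *Cdk1* and *Cdc20* lies upstream of the RefSeq start. The 160 bases before the GENCODE start of *Cdk1* (chr10:69352939-69353098, minus strand) held an E2F word, a CHR and a pair of CCAAT boxes, the latter read as ATTGG on this strand. The corresponding 160 bases of *Cdc20* (chr4:118437353-118437512, minus strand) held 1 CHR and 1 CCAAT box. Closer to the RefSeq start, and so not printed, were a further CHR in *Cdk1* (at -15) and a further CCAAT in *Cdc20* (at -8).
Cdk1: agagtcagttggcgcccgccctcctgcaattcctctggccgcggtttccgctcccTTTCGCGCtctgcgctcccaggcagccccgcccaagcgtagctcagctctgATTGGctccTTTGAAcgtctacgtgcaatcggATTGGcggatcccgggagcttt
Cdc20: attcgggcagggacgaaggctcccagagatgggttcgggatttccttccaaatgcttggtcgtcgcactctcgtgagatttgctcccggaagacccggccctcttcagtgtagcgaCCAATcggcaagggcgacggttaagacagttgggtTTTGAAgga

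Depth on genes ran from 3306771 to 24345368 reads, and every member had between 23 and 10649 reads in each library. Replicates 1 to 3 of both groups and replicates 4 and above differ technically (in reads on genes as a share of the implied total, 74.5% to 94.0% against 94.8% to 99.9%) and are called set 1 and set 2. *Gfra1* (6.80 to 9.10 log2 RPM in control, 7.36 to 9.59 in cryptorchid) and *Zbtb16* (7.49 to 9.05 and 7.42 to 9.07) were high in all libraries, and *Kit* was lower (3.67 to 5.31 and 4.22 to 5.74). Of 13 spermatid markers 5 were lower in cryptorchid libraries at an unadjusted *P*-value under 0.05 (3.82% of all genes), with a median over the 13 of -2.07 log2. Their summed level was 9.45 to 11.96 log2 RPM in control and 5.15 to 11.41 in cryptorchid libraries, so the groups overlapped. Each of these 13 markers had reads in at least 1 library. Of 7 endothelial markers 3 were higher at that limit (5.67% of all genes) and at 2-fold (3.56%), with a median over the 7 of 0.50 log2 and a summed level of 4.69 to 5.62 log2 RPM in control and 5.22 to 6.16 in cryptorchid libraries, and each had reads in at least 1 library. The part of either list in the results on the members was not tested.

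Most replication and mitosis genes did not pass the test between control and cryptorchid spermatogonia. *Gins3*, a GINS subunit of the replicative helicase, was 2.28-fold higher in cryptorchid libraries, and *Aurkb*, the kinase of the chromosomal passenger complex, was 2.28-fold lower. At 2-fold and an unadjusted *P*-value under 0.05 (limma), the threshold of the study, 1 of 32 replication genes was higher (3.13%) and 0 were lower. The background over all genes tested was 3.56% higher and 2.36% lower. For mitosis genes, 1 of 18 was lower (5.56%) and 0 were higher. Without the fold limit, 2 replication genes were higher (*Gins3* and *Prim1*, 6.25%, against 5.67% of all genes) and 2 mitosis genes were lower (*Aurkb* and *Plk1*, 11.1%, against 3.82%). The other direction had 0 members in each list at that limit in this fit, and with voom on the recovered reads. It was also empty with median centring, quantile normalization, log2(RPM + 1), log2(RPM + 0.1), no filter, a term for set, and in set 1 alone. It was not empty in some other fits. With array weights, which give each library its own weight, *Cdc6* and *Cdt1* were lower (8.92% of all genes) and *Bub1* and *Top2a* higher (11.1%). In set 2 alone, *Pole* and *Rfc2* were lower (8.5% of all genes) and *Bub1* and *Top2a* higher (8.83%). In that set 5 replication genes were higher (*Gins3*, *Lig1*, *Mcm4*, *Orc2* and *Rrm1*, 15.6%, against 8.83%). There, 4 mitosis genes were lower (*Aurka*, *Aurkb*, *Cdc20* and *Plk1*, 22.2%, against 8.5%). The shares over all libraries rest on 1 or 2 genes a list, and those of the replication genes were near the background. No member passed a Benjamini-Hochberg adjusted *P*-value of 0.05 with voom or with limma without weights or a block. That limma fit, on the values as deposited, called 0.0118% of all genes at that limit. With array weights *Gins3* and *Aurkb* passed it, as did 1.49% of all genes higher and 1.32% lower. With the replicate number as a block both passed it too, as did 2.31% of all genes higher and 3.51% lower. In 0 members did the groups fail to overlap, against 0.555% of all genes higher and 0.283% lower.

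The size of the differences was small for most members. Log2 fold changes, cryptorchid minus control, ran from -0.50 to 1.19 for replication genes, with a median of 0.12. They ran from -1.19 to 0.52 for mitosis genes, with a median of -0.14, and the median over all genes tested was 0.10. The mean was higher in cryptorchid libraries for 21 of 32 replication genes and lower for 11 of 18 mitosis genes. For 17 of 32 replication genes and 7 of 18 mitosis genes, the 95% interval of the difference lay within 2-fold in either direction, against 25.3% of all genes. For the other 26 members a 2-fold difference is within the interval. In bulk RNA, fewer cells in a phase and less RNA per cell cannot be told apart.

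**Figure D1:**
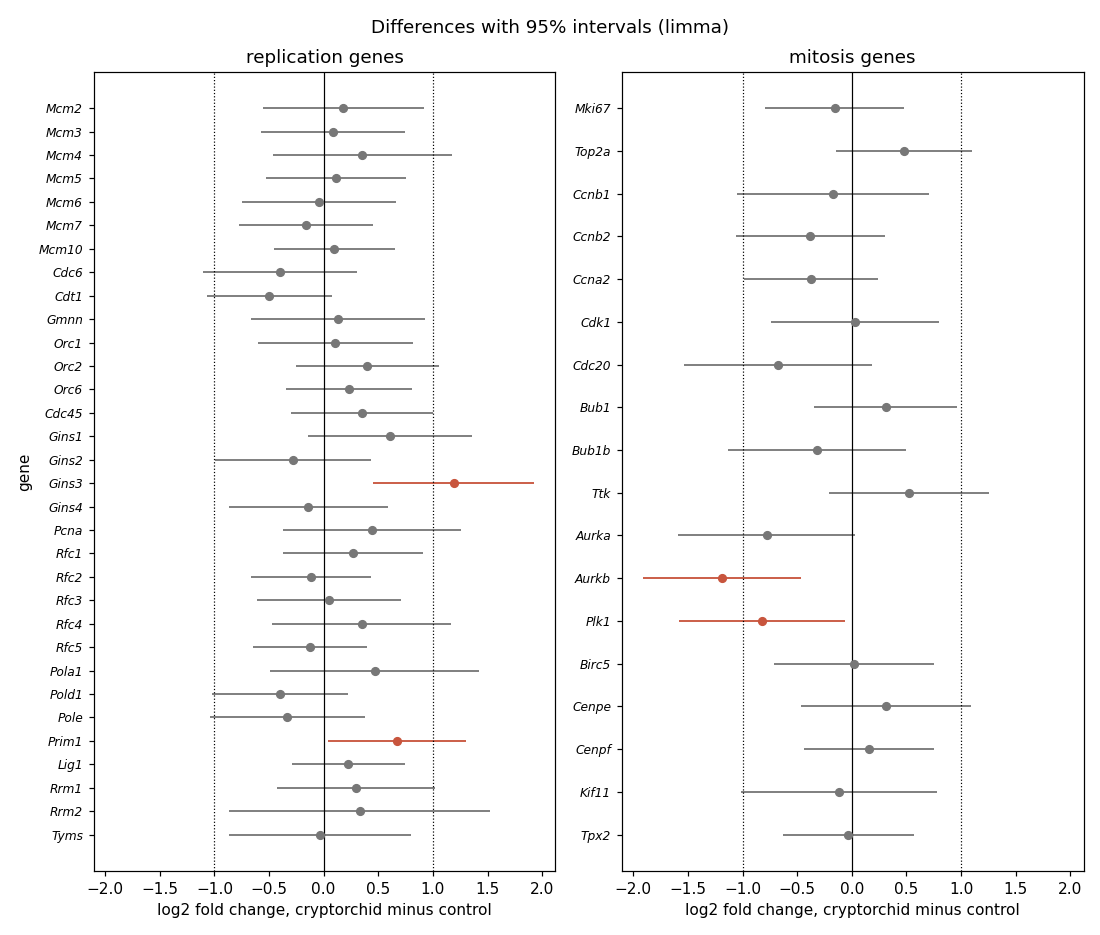
Log2 fold change (cryptorchid minus control) of each of the 32 replication genes (left) and 18 mitosis genes (right), with 95% intervals from limma. Dotted lines mark 2-fold, and red marks the members with an unadjusted *P*-value under 0.05, which are *Gins3* and *Prim1* on the left and *Aurkb* and *Plk1* on the right.

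GINS subunits and CDC45 complete the CMG helicase. *Gins3* (ENSMUSG00000031669, chr8:95633453-95645060, GENCODE vM21) read 2.97, 3.09, 3.32, 2.90 and 4.05 log2 RPM in control replicates 1 to 5. Among the 7 cryptorchid libraries it ranged from 3.89 to 5.01 with a median of 4.36. The control libraries were low except replicate 5, and 6 of 7 cryptorchid libraries lay above that one. The means were 3.27 ± 0.47 (SD, *n*=5) and 4.46 ± 0.36 (SD, *n*=7), a log2 fold change of 1.19 ± 0.35 (SE, 95% interval 0.45 to 1.93, limma unadjusted *P*=0.0033, adjusted *P*=0.26). The exact permutation test, two-sided over all 792 splits into 5 and 7, gave *P*=0.0025 for *Gins3*. The difference was 1.05 in set 1, where it missed the unadjusted limma threshold, and 1.19 in set 2, where it passed. *Gins3* was also the member with the lowest control level. The other 4 genes of this group (*Cdc45*, *Gins1*, *Gins2* and *Gins4*), whose products act in the same complex, differed by -0.28 to 0.61 log2, and none passed the test.

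*Prim1*, the catalytic primase subunit, read 5.84, 5.44, 4.35, 5.50 and 6.14 log2 RPM in control replicates 1 to 5. Its cryptorchid libraries ranged from 5.55 to 6.49 with a median of 6.10. Control replicate 3 was far below the rest, and 3 of 7 cryptorchid libraries lay above the highest control library. The difference was 0.68 ± 0.30 log2 (SE, 95% interval 0.04 to 1.31, limma unadjusted *P*=0.038, adjusted *P*=0.49, exact permutation *P*=0.029). It was 0.40 without control replicate 3, and *Prim1* missed the unadjusted limma threshold in 7 of the 12 fits that left out 1 library (control replicates 2, 3 and 4 and cryptorchid replicates 1, 4, 5 and 6). Among the polymerases and ligase I, *Pola1*, *Pold1*, *Pole* and *Lig1* differed by -0.40 to 0.47 log2, and none passed the test.

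None of the 6 MCM helicase genes passed the test, and for 5 of them the 95% interval lay within 2-fold. Their log2 fold changes ran from -0.16 to 0.35 with a median of 0.10. *Mcm2* read 8.12, 7.76, 6.09, 7.65 and 7.57 log2 RPM in control replicates 1 to 5, and 6.85 to 8.55 with a median of 7.50 in the cryptorchid libraries. Control replicate 3 stood apart, and the ranges otherwise coincided. The difference for *Mcm2* was 0.18 ± 0.35 log2 (SE, 95% interval -0.55 to 0.92, limma adjusted *P*=0.90, exact permutation *P*=0.66). Without control replicate 3 it was -0.16.

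*Mcm6* read 8.77, 7.88, 7.04, 7.42 and 7.62 log2 RPM in the 5 control libraries. Its cryptorchid values lay between 6.93 and 8.84 with a median of 7.54. The groups covered the same range, with replicate 1 of each group the highest and replicate 3 the lowest. The difference was -0.04 ± 0.34 log2 (SE, 95% interval -0.75 to 0.66, limma adjusted *P*=0.98, exact permutation *P*=0.88). Its sign turned with several settings, among them leaving out control replicate 1 (0.21) or cryptorchid replicate 3 (0.09).

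Genes of origin recognition and licensing had log2 fold changes from -0.50 to 0.40, and 0 of 7 passed the test. The highest was that of *Orc2*, named here after its values were seen. It was -0.17 in set 1 and 0.96 in set 2, where it passed the unadjusted limma threshold. With array weights over all libraries *Orc2* was 0.71 and passed it too, as did 11.1% of all genes higher. The interaction of group and set did not pass for *Orc2*. *Cdt1*, which brings MCM to the origin, read 6.71, 6.81, 6.25, 6.55 and 6.26 log2 RPM in control replicates 1 to 5. The cryptorchid libraries ranged from 5.47 to 6.99 with a median of 5.88, and 5 of 7 lay below the lowest control library. Cryptorchid replicate 1 was instead the highest library of all. The difference in *Cdt1* was -0.50 ± 0.27 log2 (SE, 95% interval -1.07 to 0.07, limma *P*=0.083, adjusted *P*=0.59, exact permutation *P*=0.074). Without cryptorchid replicate 1 it was -0.66, the only single library whose removal took *Cdt1* past the unadjusted limma threshold.

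*Cdc6*, the loading ATPase, gave 5.20, 5.17, 4.13, 4.99 and 5.09 log2 RPM in control replicates 1 to 5. It lay between 3.95 and 5.34 in the cryptorchid libraries, with a median of 4.32. Control replicate 3 was low and the other control libraries were close together, whereas cryptorchid replicates 1 and 3 were high. The difference was -0.40 ± 0.34 log2 (SE, 95% interval -1.10 to 0.31, limma adjusted *P*=0.74, exact permutation *P*=0.20). It was -0.03 in set 1 and -0.74 in set 2, and neither these nor the interaction of group and set passed the unadjusted limma threshold. *Cdc6* passed it without both libraries numbered 3 (-0.70, with 6.40% of all genes lower) and with array weights (-0.66, with 8.92%).

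The sliding clamp *Pcna* read 6.88, 6.58, 5.07, 6.88 and 7.27 log2 RPM in control replicates 1 to 5. Cryptorchid libraries ranged from 5.68 to 7.60 with a median of 7.21. Replicate 3 was the lowest of each group, and 3 of 7 cryptorchid libraries lay above all control libraries. The difference was 0.44 ± 0.39 log2 (SE, 95% interval -0.37 to 1.25, limma adjusted *P*=0.75, exact permutation *P*=0.36), and 0.07 without control replicate 3. *Pcna* has named pseudogenes, and reads could be split among them. The 5 replication factor C genes, which encode the clamp loader, differed by -0.12 to 0.35 log2, and none passed the test.

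For nucleotide supply, *Rrm2*, the regulated subunit of ribonucleotide reductase, read 4.44, 2.76, 2.53, 2.63 and 4.78 log2 RPM in control replicates 1 to 5. In the cryptorchid libraries it spanned 2.34 to 5.20 with a median of 3.84. Both groups held low and high libraries, and the spread was the widest of the named members. The difference was 0.33 ± 0.57 log2 (SE, 95% interval -0.86 to 1.53, limma adjusted *P*=0.89, exact permutation *P*=0.59), so a difference of 2-fold was not detectable for this gene. It was 1.11 in set 1 and -0.39 in set 2, without an interaction past the unadjusted limma threshold. *Rrm1* and *Tyms* differed by 0.29 and -0.04 log2.

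**Figure D2:**
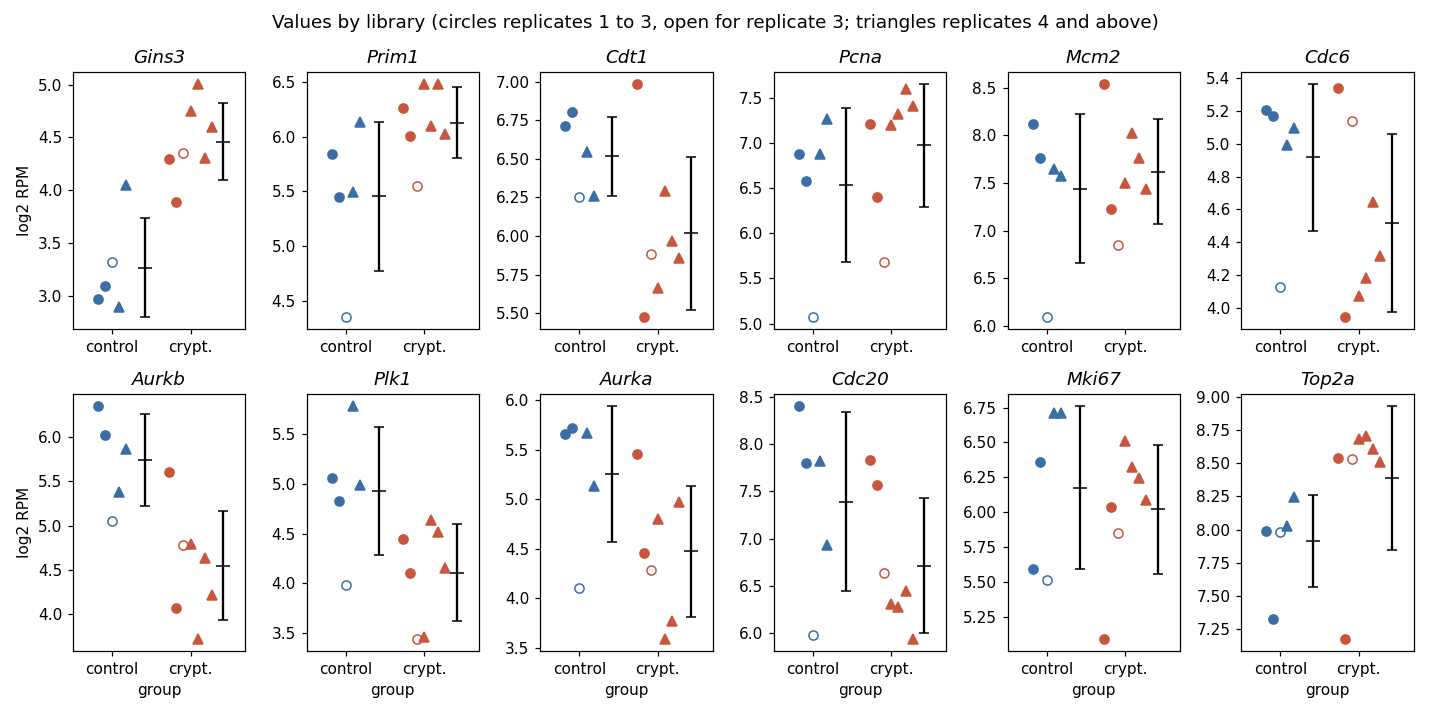
Log2 RPM by library for 12 members, control in blue and cryptorchid (crypt.) in red, with the mean and SD of each group in black to its right. Circles are replicates 1 to 3, open for replicate 3, and triangles are replicates 4 and above. *Gins3* is higher in 6 of 7 cryptorchid libraries than in any control library, and *Aurkb* is lower in 6 of 7 than in any control library.

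The 4 mitotic kinase and passenger complex genes had a median log2 fold change of -0.80, the lowest of the groups of mitosis genes. *Aurkb* (ENSMUSG00000020897, chr11:69045647-69051664) encodes Aurora B, which corrects faulty attachments of chromosomes to the spindle. It read 6.35, 6.02, 5.05, 5.38 and 5.86 log2 RPM in control replicates 1 to 5, and 3.72 to 5.61 with a median of 4.63 in the cryptorchid libraries. All cryptorchid libraries except replicate 1 lay below the lowest control library. The means were 5.73 ± 0.52 (SD, *n*=5) and 4.55 ± 0.61 (SD, *n*=7), a difference of -1.19 ± 0.34 log2 (SE, 95% interval -1.91 to -0.46, limma unadjusted *P*=0.0029, adjusted *P*=0.25, exact permutation *P*=0.0088). It was -0.99 in set 1, where it missed the unadjusted limma threshold, and -1.28 in set 2, where it passed. *Aurkb* and *Gins3* passed it in each of the 12 fits that left out 1 library.

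*Plk1* (ENSMUSG00000030867, chr7:122159439-122169873) encodes the Polo-like kinase of spindle and mitotic exit. It read 5.06, 4.83, 3.98, 5.79 and 4.99 log2 RPM in control replicates 1 to 5. The cryptorchid libraries ranged from 3.44 to 4.64 with a median of 4.15. Only control replicate 3 overlapped the cryptorchid range, and replicate 4 was the highest. The difference was -0.82 ± 0.36 log2 (SE, 95% interval -1.58 to -0.06, limma unadjusted *P*=0.036, adjusted *P*=0.49, exact permutation *P*=0.032). *Plk1* missed the unadjusted limma threshold in 6 of the 12 fits without 1 library (control replicates 1, 2, 4 and 5 and cryptorchid replicates 3 and 4), with -0.61 log2 without control replicate 4. Exons of *Plk1* overlap *Gm44985* on the other strand. As no source says whether counting used strand, its reads are uncertain.

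*Aurka*, encoding the Aurora kinase of the spindle poles, read 5.66, 5.71, 4.10, 5.67 and 5.13 log2 RPM in control replicates 1 to 5, and 3.59 to 5.45 with a median of 4.46 in the cryptorchid libraries. Control replicate 3 lay with the lower cryptorchid libraries, and the other control libraries were mostly above them. The difference was -0.78 ± 0.38 log2 (SE, 95% interval -1.59 to 0.03, limma *P*=0.057, adjusted *P*=0.54, exact permutation *P*=0.074). *Aurka* passed the unadjusted limma threshold without control replicate 3 (-1.07 log2), without cryptorchid replicate 1 (-0.94) or without cryptorchid replicate 7 (-0.86). *Birc5*, encoding survivin, a partner of Aurora B in the passenger complex, differed by 0.02 log2 (95% interval -0.71 to 0.75), whereas *Aurkb* differed by -1.19.

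Cyclins and CDK1 gave no call. *Ccnb1*, encoding cyclin B1, read 8.74, 7.53, 6.36, 8.37 and 8.14 log2 RPM in control replicates 1 to 5, and 6.40 to 8.42 with a median of 7.98 in the cryptorchid libraries. Both groups held a few low libraries, control replicate 3 and cryptorchid replicates 2 and 3. The difference was -0.17 ± 0.42 log2 (SE, 95% interval -1.05 to 0.71, limma adjusted *P*=0.92, exact permutation *P*=0.73), and 0.06 without control replicate 1 and 0.04 without cryptorchid replicate 2. *Ccnb1* has a named pseudogene, as does *Ccnb2*.

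*Cdk1* read 5.83, 5.03, 5.33, 6.74 and 6.64 log2 RPM in control replicates 1 to 5, and 4.70 to 6.66 with a median of 6.07 in the cryptorchid libraries. The ranges were nearly the same, with set 2 above set 1 in most libraries. The difference was 0.03 ± 0.37 log2 (SE, 95% interval -0.74 to 0.80, limma adjusted *P*=0.99, exact permutation *P*=0.94), and its sign turned under other scalings, for example -0.04 after median centring. *Ccnb2* and *Ccna2*, encoding further mitotic cyclins, differed by -0.38 and -0.37 log2, and neither passed the test.

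*Mki67*, encoding the proliferation marker Ki-67, read 5.59, 6.36, 5.52, 6.71 and 6.71 log2 RPM in control replicates 1 to 5, and 5.09 to 6.51 with a median of 6.09 in the cryptorchid libraries. Set 2 libraries were high in both groups. The difference was -0.16 ± 0.30 log2 (SE, 95% interval -0.80 to 0.48, limma adjusted *P*=0.90, exact permutation *P*=0.61), an interval that lies within 2-fold. *Top2a*, encoding the topoisomerase that untangles chromosomes, read 7.99, 7.33, 7.99, 8.03 and 8.25 log2 RPM in control replicates 1 to 5, and 7.18 to 8.70 with a median of 8.54 in the cryptorchid libraries. Replicate 2 was the lowest in each group, and all other cryptorchid libraries lay above every control library. The difference in *Top2a* was 0.48 ± 0.29 log2 (SE, 95% interval -0.14 to 1.10, limma adjusted *P*=0.63, exact permutation *P*=0.12). Without cryptorchid replicate 2 it was 0.68, past the unadjusted limma threshold.

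Spindle checkpoint genes went both ways. *Bub1*, *Bub1b* and *Ttk*, encoding kinases and a pseudokinase of the checkpoint, differed by 0.31, -0.32 and 0.52 log2, and *Cdc20*, the checkpoint's target and activator of the anaphase-promoting complex, by -0.68 ± 0.41 (SE, 95% interval -1.53 to 0.18, limma adjusted *P*=0.63, exact permutation *P*=0.18). *Cdc20* is named here after its values were seen. It read 8.41, 7.80, 5.98, 7.82 and 6.93 log2 RPM in control replicates 1 to 5, and 5.93 to 7.84 with a median of 6.44 in the cryptorchid libraries. The control libraries were spread, and cryptorchid replicates 1 and 2 were high while those of set 2 were all low. The difference was -0.05 in set 1 and -1.14 in set 2, which passed the unadjusted limma threshold, as did -1.03 without control replicate 3. The interaction of group and set did not pass it. Exons of *Cdc20* overlap *Elovl1* on the other strand. Kinetochore and spindle genes *Cenpe*, *Cenpf*, *Kif11* and *Tpx2* differed by -0.12 to 0.32 log2, with none past the test.

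Library differences within a group were shared by most members. Control replicate 3 was the lowest control library for 28 of 32 replication genes and 13 of 18 mitosis genes, 82% of members against 39.3% of all genes. This library also had the lowest share of reads on genes of all libraries (74.5%). Its median over all genes tested, 3.88 log2 RPM, was the lowest as well. Cryptorchid replicate 3 was the lowest cryptorchid library for 27 members (54%, against 31.3%), and cryptorchid replicate 1 the highest for 26 (52%, against 17.3%). The polymerase genes *Pola1* and *Pole* ran the other way and were highest in replicate 3 of each group. The summed level of markers of differentiating spermatogonia was also lowest in replicate 3 of each group, 7.98 log2 RPM in control and 8.05 in cryptorchid, against 8.39 to 9.24 in the others. The part of this marker level, or of the technical values of control replicate 3, in the members' levels was not tested.

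**Figure D3:**
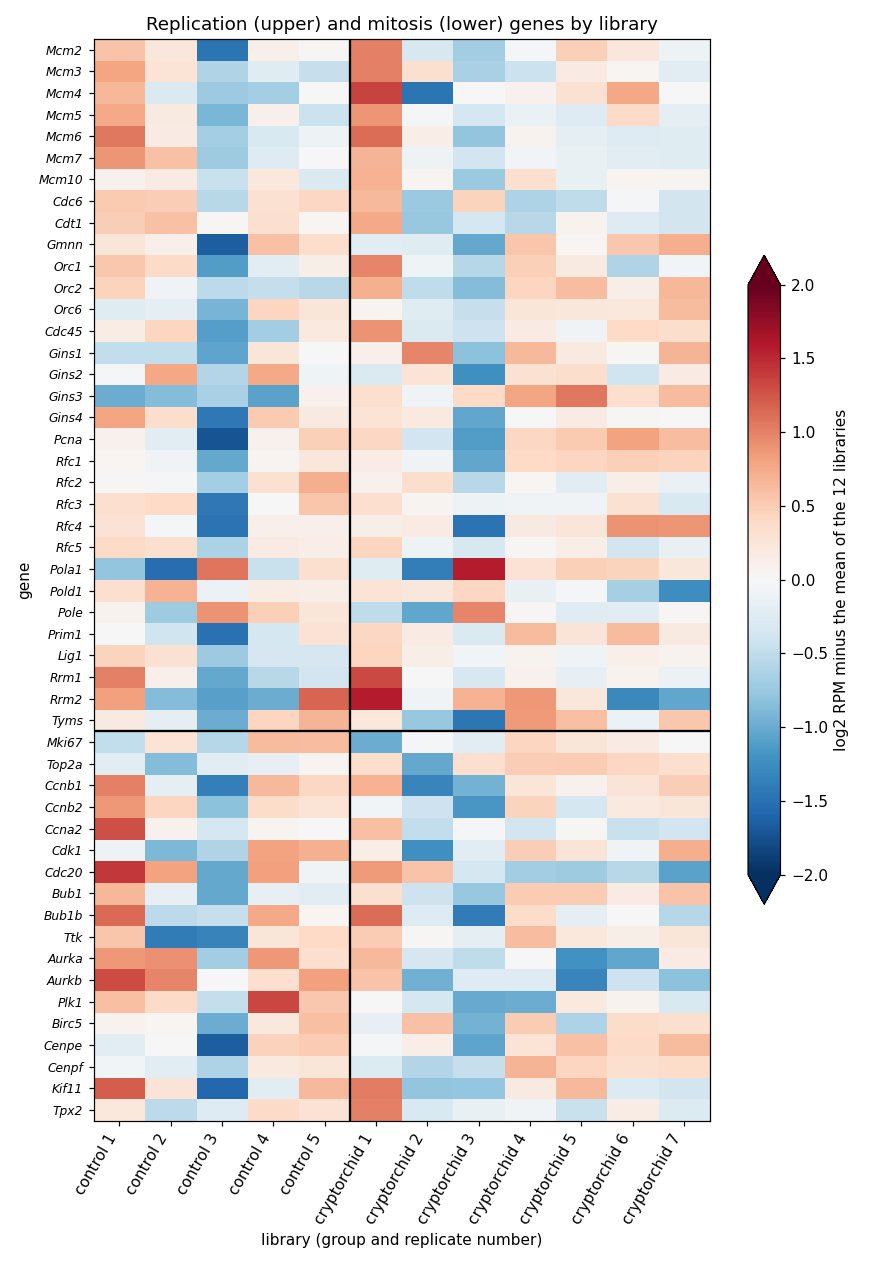
Log2 RPM of each member in each library minus its mean over the 12 libraries, replication genes above the line and mitosis genes below, control left and cryptorchid right. The column of control replicate 3 is blue for most genes, and those of control replicate 1 and cryptorchid replicate 1 are red for many.

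Leaving out control replicate 3 changed the number of mitosis genes past the threshold of the study. Without it, 4 of 18 mitosis genes were lower at 2-fold and an unadjusted *P*-value under 0.05 (*Aurka*, *Aurkb*, *Cdc20* and *Plk1*), against 3.36% of all genes. *Gins3* was the 1 replication gene higher, against 4.01%. In set 2 alone (2 control and 4 cryptorchid libraries), the same 4 mitosis genes were lower, against 4.16% of all genes, and *Gins3* was higher, against 3.75%. These calls are not independent of those over all libraries. In set 1 alone, 0 members were called in either list, with 0 at an unadjusted *P*-value under 0.05 as well, where 1.7% of all genes were higher and 2.04% lower under either rule. No member had an interaction between group and set at an unadjusted *P*-value under 0.05, as 1.59% of all genes did. Without control replicate 3 the median log2 fold change was -0.08 for replication genes and -0.40 for mitosis genes, and 0.01 over all genes.

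The mean log2 RPM over a list puts the libraries side by side. Over replication genes it was 6.79, 6.51, 5.70, 6.46 and 6.62 in control replicates 1 to 5, and 6.10 to 6.997 with a median of 6.58 in cryptorchid libraries. Over mitosis genes it was 6.93, 6.33, 5.59, 6.79 and 6.71 in the control, and 5.80 to 6.72 with a median of 6.35 in cryptorchid libraries. The groups overlapped on both lists. Mitosis minus replication, taken within each library, was 0.14, -0.18, -0.11, 0.33 and 0.09 in control replicates 1 to 5, and -0.35 to -0.16 with a median of -0.28 in cryptorchid libraries. All cryptorchid libraries were below 4 of the 5 control libraries, control replicate 2 lay within the cryptorchid range, and within each set every cryptorchid library was below every control library. This difference averaged 0.05 ± 0.21 over the 5 control libraries (SD) and -0.26 ± 0.08 over the 7 cryptorchid libraries (SD). As the members were chosen with results of these data known, this is a description without a test.

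**Figure D4:**
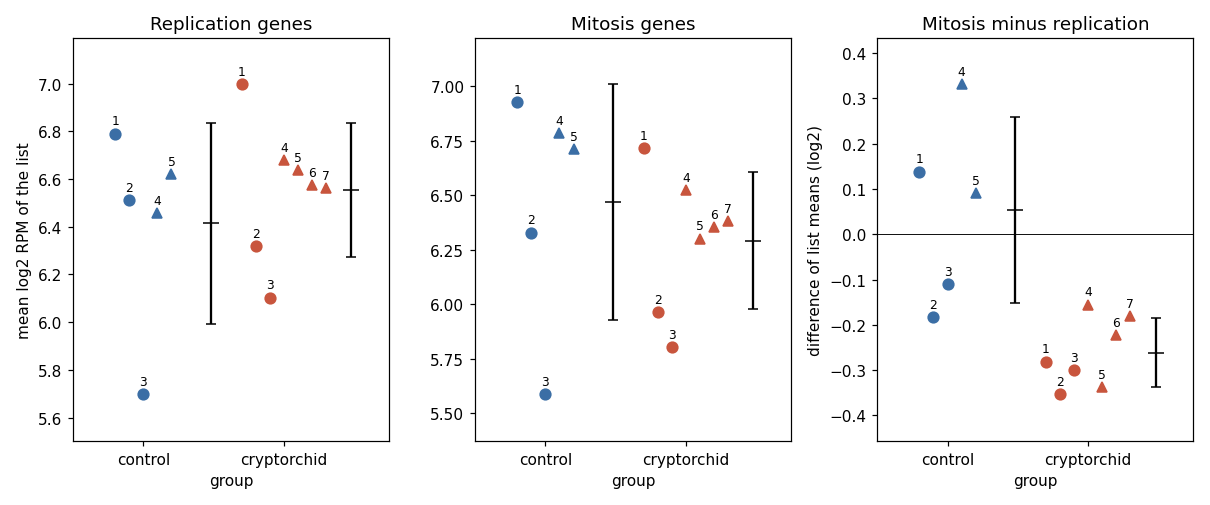
Mean log2 RPM over the 32 replication genes (left) and the 18 mitosis genes (middle) and their difference (right) in each library, labelled by replicate number, with the mean and SD of each group in black. Circles are replicates 1 to 3 and triangles 4 and above. The 2 list means overlap between groups, and the difference lies between -0.35 and -0.16 in the 7 cryptorchid libraries and between -0.18 and 0.33 in the 5 control libraries.

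A further 45 replication genes and 50 mitosis genes outside the members were counted in the same way. Of the 45, 4 were higher (8.89%, against 5.67% of all genes) and 3 lower (6.67%, against 3.82%) at an unadjusted *P*-value under 0.05, with a median of 0.13 log2. The genes with the smallest unadjusted values were *Pold4* (1.25 ± 0.52, SE, limma adjusted *P*=0.46) and *Ccne2* (0.83 ± 0.35, adjusted *P*=0.46), encoding a polymerase delta subunit and cyclin E2, and, in the other direction, *Chaf1a* (-0.68 ± 0.24, adjusted *P*=0.38) and *Rnaseh2a* (-0.90 ± 0.33, adjusted *P*=0.40), for chromatin assembly and removal of RNA from DNA. Of the 50, 2 were higher (4%) and 3 lower (6%), against the same shares of all genes, with a median of -0.02 log2. *Kif18a* (0.93 ± 0.31, SE, limma adjusted *P*=0.35) and *Ncapg* (0.80 ± 0.29, adjusted *P*=0.38), encoding a spindle motor and a condensin subunit, were higher. *Espl1* (-0.84 ± 0.23, limma adjusted *P*=0.23) and *Ccnf* (-0.82 ± 0.36, adjusted *P*=0.48), encoding separase and cyclin F, were lower. *Espl1* lay between 6.80 and 7.17 log2 RPM in control and between 5.78 and 6.72 in cryptorchid libraries, so that its groups did not overlap, as in 0.283% of all genes in this direction. None of these passed an adjusted *P*-value of 0.05 with voom or with limma without weights or a block. With array weights *Ccne2*, *Chaf1a*, *Rnaseh2a*, *Ncapg*, *Ccnf* and *Espl1* did. With the replicate number as a block *Kif18a*, *Ncapg*, *Chaf1a*, *Rnaseh2a*, *Ccnf* and *Espl1* did. In these lists, mitosis minus replication was 0.01 to 0.40 in control and -0.04 to 0.25 in cryptorchid libraries, with means of 0.21 ± 0.17 and 0.13 ± 0.11 (SD), and the groups overlapped over most of that range.

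Per kilobase of exon, the levels of members differed far more between genes than between groups. On this scale, *Rfc4* of the clamp loader (6.88 log2 RPM per kb in control, 7.23 in cryptorchid), *Cdc20* (6.49 and 5.81) and *Gins4* (6.47 and 6.33) were high. *Gins3* (1.83 and 3.02), *Rrm2* (1.96 and 2.29) and *Cdc6* (2.53 and 2.13) were low. *Gins4* and *Gins3* encode subunits of 1 complex, and the level of *Gins4* was above that of *Gins3* in both groups. *Aurkb* was at 4.18 in control and 2.99 in cryptorchid libraries, and *Birc5* at 3.33 and 3.35. Exons of *Rfc4* overlap a gene on the other strand, which leaves its level uncertain. In all, 14 members have such an overlap and 4 have a named pseudogene, and *Gins3* and *Aurkb* have neither.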

How the data were processed

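The authors trimmed reads with Trim Galore 0.6.6, mapped them to mm10 with HISAT2 2.1.0, counted reads of protein-coding genes in SeqMonk and excluded libraries with excessive duplicates. The deposited values are log2 RPM, not pooled over replicates. In them, 100% of values under 1000 reads came out whole (tolerance 0.01 reads). Read numbers cover counting error only, as Smart-seq2 carries no molecular identifiers. The 31 replicate pairs differed by 12.8 to 253 times sampling noise, and each library counted as 1 sample.

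Differences of mean log2 RPM (no pseudocount) were tested with limma 3.58.1 in R 4.3.3 (trend, no block), in place of the count test of the study, and adjusted by Benjamini-Hochberg over the 16932 genes. Exact permutation tests were two-sided (smallest *P*-value 0.00126). The sets were read from the values.

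Members and lists were chosen with earlier results of these data known. Full values are given for members called or not overlapping, the 3 smallest *P*-values of each list, and 10 usual marks of S phase and mitosis. For the further lists these are the 2 smallest in each direction. The other marker lists (undifferentiated and differentiating spermatogonia, spermatocytes, Sertoli, Leydig, myoid and blood cells) had 0 to 1 genes higher and 0 to 1 lower at an unadjusted *P*-value under 0.05. Their median log2 fold changes ran from -0.65 for differentiating spermatogonia to 0.47 for Leydig cells. Summed spermatocyte markers were at 8.63 to 9.08 log2 RPM in control and 8.94 to 9.67 in cryptorchid libraries. The part of these lists in the results on the members was not tested. Alternatives were median centring, quantile normalization, log2(RPM + 1), log2(RPM + 0.1), no filter, array weights, voom on recovered reads, a replicate block, a set term, each set alone and each library left out. Leaving out both libraries numbered 3 and the interaction with set were chosen after seeing the data. Positions are GENCODE vM21 on GRCm38, the build of mm10. Plots were made with Python 3.11.15 and matplotlib 3.10.9.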

Additional observations from a re-analysis of the deposited data

Results flagged for a closer look

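Among 34 groups of 4 to 10 libraries checked for a library far from the rest, 4 were picked out by Dixon's criterion, where chance gives about 1 in 20. *Mcm2* was 6.09 log2 RPM in control replicate 3, the library that was lowest of its group for most members. *Cdc6* was 4.13 log2 RPM in the same library. *Top2a* was 7.33 log2 RPM in control replicate 2 and 7.18 log2 RPM in cryptorchid replicate 2, below the other libraries of each group.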

How the results depend on the processing

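The number of mitosis genes lower at 2-fold and an unadjusted *P*-value under 0.05, 1 over all libraries, was 3 with array weights (4.15% of all genes lower), 0 in set 1 alone, 4 in set 2 alone, 1 to 4 with 1 library left out (4 without control replicate 3) and 3 without both libraries numbered 3 (2.88% of all genes lower). The cause was not tested. Replication genes higher numbered 1 in every other setting and 0 in set 1 alone. *Gins3* ranged from 1.05 to 1.39 log2 and *Aurkb* from -1.40 to -0.99 over all settings, and both missed the threshold in set 1 alone. Their adjusted *P*-values ranged from 0.043 to 1 and from 0.034 to 1. The sign turned for genes near 0. *Mcm2* was -0.0272 without both libraries numbered 3 and -0.16 to 0.35 with 1 library left out. *Mcm6* was 0.0049 with array weights, 0.0141 with a set term, 0.0546 in set 2 alone and -0.23 to 0.21 with 1 library left out. *Rrm2* was -0.39 in set 2 alone, and *Ccnb1* -0.54 to 0.0559 with 1 library left out. *Cdk1* was -0.0363 with median centring, -0.0400 with quantile normalization, -0.11 with array weights, -0.14 with a set term, -0.41 in set 2 alone, -0.0765 without both libraries numbered 3 and -0.19 to 0.24 with 1 library left out. The medians ranged from -0.08 to 0.27 for replication and from -0.40 to 0.01 for mitosis genes with 1 library left out, so that neither sign held throughout.

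With the replicate number as a block, 1 replication gene was higher and 1 mitosis gene lower, as without it, and *Mcm6* was 0.0476 and *Cdk1* -0.0944 log2. Under the block *Gins3* and *Aurkb* passed an adjusted *P*-value of 0.05, as did 391 genes higher and 594 lower of all genes, and of the further genes named, *Kif18a*, *Ncapg*, *Chaf1a*, *Rnaseh2a*, *Ccnf* and *Espl1*. At an unadjusted *P*-value under 0.05, *Pola1*, *Rrm1*, *Top2a* and *Ttk* were also higher (11.4% of all genes) and *Pole*, *Aurka* and *Ccnb2* also lower (10.9%). Deviations of libraries with the same number correlated over genes at 0.347, 0.363, 0.411 and 0.25 for numbers 1 to 4, each control library correlating best with its own number. For number 5 the correlation was 0.0488, and control replicate 5 correlated best with cryptorchid replicate 7. As 1 number did not pair and the mice are not given, the numbers were not taken as pairs.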
